A study of Mus musculus with 6 samples.

Results

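Adipokines are the hormones, complement proteins and carrier proteins that fat tissue secretes. The set described here holds 9 adipokine genes: Adipoq (adiponectin), Lep (leptin), Retn (resistin), Cfd (complement factor D, or adipsin), Rarres2 (chemerin), Rbp4 (retinol-binding protein 4), Apln (apelin), Serpina12 (vaspin) and Agt (angiotensinogen). A probe set is a group of array probes summarised into 1 signal value. It was taken as a member when the authors' deposited table gave it exactly 1 of these symbols. This found 14 of the 45037 probe sets tested. Adipoq and Rarres2 had 3 each, Serpina12 had 2, and the other 6 genes had 1.

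The arrays carried RNA from the cleared mammary fat pad of 4-week-old mice, 3 labelled Rarb -/- (Rarb-null below) and 3 labelled Rarb +/+, their wild-type littermates. Rarb encodes retinoic acid receptor beta, a nuclear receptor that binds retinoic acid. Every sample's description also names ErbB2 and young mice without saying whether a transgene was present, so both genotypes share that uncertainty. The sources used here do not say how many mice stand behind an array, whether Rarb was lost in all cells of the body, or whether replicates were separate animals. The p-values therefore measure the spread between these arrays, which may be technical.

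Signal is given as the deposited log2 RMA value, where 1 unit is a doubling. Array medians lay between 6.78 and 6.85. The 1 Rarb probe set averaged 6.84 ± 0.49 in Rarb-null and 6.54 ± 0.48 in wild-type samples (SD, n = 3 each). It is not known whether it lies in the deleted part, so it checks nothing about the labels. Adipocyte markers were bright on every array, with the lipid droplet gene Cidec between 13.32 and 13.78 and the fatty acid binding protein gene Fabp4 between 14.43 and 14.90. Plin1, another lipid droplet gene, was read by a dim probe set, from 5.85 to 6.29. The epithelial adhesion gene Epcam read 12.71 to 13.61, although the labels call the fat pad cleared. In tissue of mixed cells, fewer cells of a type and less RNA per cell cannot be told apart.

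White adipocytes release adiponectin and leptin in roughly opposite relation to fat mass: adiponectin acts on muscle and liver through Adipor1 and Adipor2, and leptin signals fat stores to the brain through Lepr. Resistin in mice comes mainly from adipocytes and counters insulin action, whereas adipsin is the protease that starts the alternative complement pathway with factor B. Chemerin is made as an inactive precursor that proteases trim at its end. It then attracts macrophages and dendritic cells through Cmklr1 and also promotes adipocyte differentiation. Its gene was first found as one induced by a synthetic retinoid in skin, which is where the symbol Rarres2 (retinoic acid receptor responder) comes from. Rbp4 carries retinol in plasma, so retinoids touch this set from both sides.

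Chemerin signal was lower on the Rarb-null arrays. The brightest Rarres2 probe set gave 11.45, 11.63 and 11.62 log2 in Rarb-null replicates 1, 2 and 3, and 12.55, 12.00 and 12.85 log2 in the corresponding wild-type arrays. The groups did not overlap, the Rarb-null arrays lay close together, and wild-type replicate 2 was the nearest to them. Averages of 11.57 ± 0.10 in Rarb-null and 12.46 ± 0.43 in wild type (SD, n = 3 each) put chemerin 1.86-fold lower, by -0.90 log2 (95% interval -1.40 to -0.40). The probe set next in brightness gave 9.65, 9.42 and 9.42 log2 on the Rarb-null arrays and 10.56, 9.96 and 10.84 log2 on the wild-type arrays. Here too the groups were apart, by a difference of -0.96 log2 (95% interval -1.48 to -0.43). The dimmest gave 6.87, 7.03 and 7.20 log2 against 7.56, 6.98 and 7.44 log2, a difference of -0.29 log2 (interval -0.71 to 0.12). In this probe set the groups overlapped, with wild-type replicate 2 among the Rarb-null arrays.

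**Figure D1:**
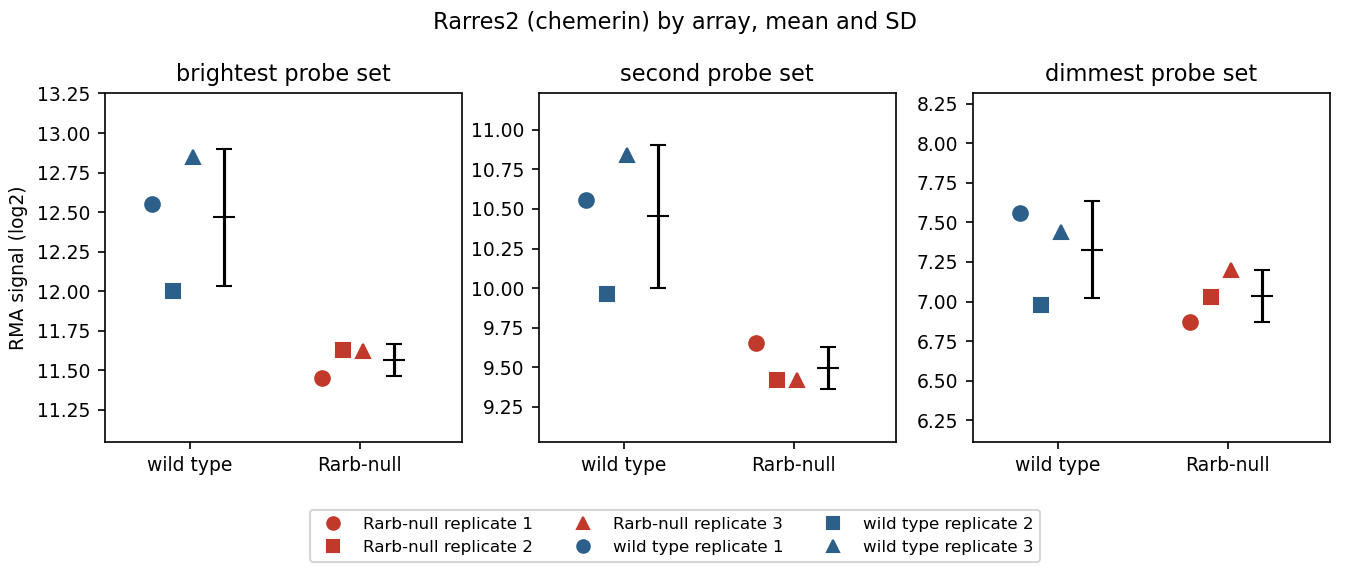
Log2 RMA signal (vertical axis) of the 3 Rarres2 probe sets on each array, by genotype; symbols give the replicate and bars the mean and SD of 3 arrays. Each panel spans the same number of log2 units. In the 2 brighter probe sets every Rarb-null array lies below every wild-type array, and in the dimmest wild-type replicate 2 reads 6.98, within the Rarb-null range.

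No adipokine probe set passed the threshold of 0.05 in limma after adjustment over all 45037 probe sets, and of all of these 0% did. The adjusted p of the brightest Rarres2 probe set was 0.908, which was also the smallest of any probe set in the table. By unadjusted p (0.0037 and 0.00339) the 2 brighter Rarres2 probe sets ranked 87 and 73 among the 45037. They were the 2 adipokine probe sets of 14 with an unadjusted p under 0.05, both as lower signal. Of all probe sets 5.22% reached that p and 2.88% did so as lower. The same 2 were the only ones of the 14 whose groups did not overlap, and both were lower. Both report the same gene on the same arrays, so they are not independent readings. Over all probe sets, 10.4% had groups that did not overlap and 5.86% had them with Rarb-null lower. The authors' deposited table gave these 2 probe sets SAM d-scores of -2.68 and -2.73 and p-values of 0.00528 and 0.00484, where 5.44% of all probe sets in it had a p-value under 0.05.

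The dependence on single arrays was checked for chemerin. With each array left out in turn, the difference of the brightest probe set ran from -1.13 to -0.71 log2, the smaller value without wild-type replicate 3. The lowest adjusted p of these fits was 0.231, without wild-type replicate 2. The direction was the same in all 17 alternative fits of this gene.

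Leptin signal divided the wild-type arrays. The Lep probe set gave 12.37, 12.65 and 12.30 log2 in Rarb-null replicates 1, 2 and 3, and 13.77, 12.30 and 13.48 log2 in the wild-type arrays. Wild-type replicates 1 and 3 were thus the highest of the 6, while wild-type replicate 2 read as low as the lowest Rarb-null array. Leptin averaged 12.44 ± 0.19 in Rarb-null and 13.18 ± 0.78 in wild type (SD, n = 3 each), and differed by -0.74 log2 (interval -1.59 to 0.10, limma adjusted p 0.908). Without wild-type replicate 2 the difference was -1.19 log2 (adjusted p 0.231), and without wild-type replicate 1 it was -0.45 log2 (adjusted p 0.876). The size of the leptin difference therefore moved by more than 1.5 times with either array.

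Resistin followed a similar order of arrays over a smaller range. Retn gave 12.91, 12.89 and 13.07 log2 on the Rarb-null arrays and 13.65, 12.70 and 13.25 log2 on the wild-type arrays. Wild-type replicate 1 was the highest and wild-type replicate 2 the lowest, so the groups overlapped. Retn differed by -0.24 log2 (interval -0.78 to 0.30, limma adjusted p 0.947). It was -0.49 log2 without wild-type replicate 2 (adjusted p 0.409) and -0.02 log2 without wild-type replicate 1.

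The start regions of these 2 hormone genes are shown because both genes are known targets of C/EBP factors, which drive adipocyte differentiation. They were picked with the signals and motifs known, and the signals ranged by 1.47 log2 for Lep and 0.953 log2 for Retn over the 6 arrays. RefSeq start regions of 300 bases (250 before to 50 after the start, build GRCm38.p6) were found for 8 of the 9 adipokine genes, and the pair of them printed here is read 5′ to 3′ along the gene. Capitals mark the C/EBP core TTGCNNAA and the half-sites of nuclear receptors (AGGTCA or GGGTCA or AGTTCA or GGTTCA), searched on both strands. The lines give Lep at chr6:29059971-29060270, plus strand, and Retn at chr8:3655520-3655819, plus strand.
Lep: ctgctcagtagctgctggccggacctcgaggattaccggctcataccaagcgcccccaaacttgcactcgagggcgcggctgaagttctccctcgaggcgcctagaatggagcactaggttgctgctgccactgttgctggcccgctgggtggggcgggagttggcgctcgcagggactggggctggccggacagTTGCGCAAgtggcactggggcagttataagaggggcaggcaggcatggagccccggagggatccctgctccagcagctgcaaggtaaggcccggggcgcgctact
Retn: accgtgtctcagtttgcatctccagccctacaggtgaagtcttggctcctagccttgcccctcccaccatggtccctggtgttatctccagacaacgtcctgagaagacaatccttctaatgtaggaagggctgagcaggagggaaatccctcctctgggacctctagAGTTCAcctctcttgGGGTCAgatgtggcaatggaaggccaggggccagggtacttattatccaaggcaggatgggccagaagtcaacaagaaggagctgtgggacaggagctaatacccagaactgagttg
The Lep window held 1 C/EBP core, TTGCGCAA, whose first base lies 55 bases before the start, and no half-site. The Retn window held 2 half-sites, AGTTCA and GGGTCA, first bases at 82 and 67 before the start, and no C/EBP core. Rbp4, whose signal ranged by 1.07 log2, has 2 windows that are not printed, of which 1 held a half-site and the other a C/EBP core. The Cfd window held a half-site and the Serpina12 window both motifs, and these signals ranged by only 0.209 and 0.225 log2. The Adipoq, Apln and Agt windows held neither motif. Rarres2 was the gene without a window. Of all 32851 windows in the table, 10.8% held such a core and 43.7% such a half-site. A match describes letters only and is no evidence of binding.

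Adiponectin and adipsin signal was nearly level across the arrays. The brightest Adipoq probe set gave 14.38, 14.52 and 14.39 log2 on the Rarb-null arrays and 14.62, 14.35 and 14.62 log2 on the wild-type arrays. All 6 values lay within 0.275 log2, and wild-type replicate 2 was again the lowest. The difference was -0.10 log2 (interval -0.38 to 0.18). Its other 2 probe sets were dim, from 4.31 to 5.65 log2, and differed by -0.09 and 0.01 log2. Cfd, the gene of the complement protease, gave 14.94, 14.97 and 14.76 log2 on the Rarb-null arrays and 14.79, 14.91 and 14.85 log2 on the wild-type arrays. The genotypes were interleaved, and the difference was 0.04 log2 (interval -0.21 to 0.29). The bright Adipoq probe set and that of Cfd read close to the highest values in the whole table, and whether saturation narrowed their differences was not tested.

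The groups overlapped for each of the remaining members, and none passed the adjusted threshold in limma. Rbp4 gave 12.18, 11.89 and 12.58 log2 on the Rarb-null arrays and 12.56, 11.76 and 12.84 log2 on the wild-type arrays. In each genotype replicate 3 was the highest and replicate 2 the lowest, and the difference was -0.17 log2 (interval -0.87 to 0.53). Agt, whose product is the precursor of the angiotensin peptides, gave 8.60, 9.08 and 8.37 log2 against 8.69, 8.88 and 8.83 log2. Both the highest and the lowest value were from Rarb-null arrays, and the difference was -0.12 log2 (interval -0.56 to 0.32).

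Apln was the member with the largest higher mean on the Rarb-null arrays. This gene of a small peptide acting on blood vessels and heart gave 8.68, 8.64 and 8.40 log2 against 8.31, 8.43 and 8.44 log2. Rarb-null replicates 1 and 2 were the highest, but replicate 3 fell inside the wild-type range. The difference was 0.18 log2, above the SD of either group (0.15 in Rarb-null and 0.07 in wild type) but with an interval that includes 0 (-0.10 to 0.46, limma adjusted p 0.914). Serpina12, the gene of a serpin made in visceral fat of rats, was read by 2 dim probe sets, from 3.91 to 5.53 log2, which lay below the median of every array. They differed by -0.02 log2 (interval -0.28 to 0.24) and -0.11 log2 (interval -0.46 to 0.24). No detection calls were used, so whether vaspin was above background is not known.

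Across the 9 genes, taking the brightest probe set of each, 7 were lower and 2 higher by mean in Rarb-null. The median of the 9 differences was -0.12 log2. Over the brightest probe sets of all 20519 named genes the median was -0.01 log2 and 52.9% had a lower mean. Of the 14 probe sets 11 had a lower mean, against 50.0% of all probe sets. Genes are not independent of each other, and no test was made of these numbers. The spread over arrays was larger in wild type for 10 of the 14 probe sets, against 58.7% of all. In 5 of the 9 genes wild-type replicate 2 was the lowest wild-type array, and the share of all genes with that order was not counted. Without that array 5 of the 14 probe sets (all 3 of Rarres2, Lep and Retn) had an unadjusted p under 0.05, as lower signal, where 9.81% of all probe sets did in the same fit. The array was singled out by its low values in these same genes, so leaving it out raises their wild-type means and the count is no support. Without wild-type replicate 1 instead, limma gave an unadjusted p of 0.0145 for the brightest Rarres2 probe set, 0.234 for Lep and 0.933 for Retn.

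**Figure D2:**
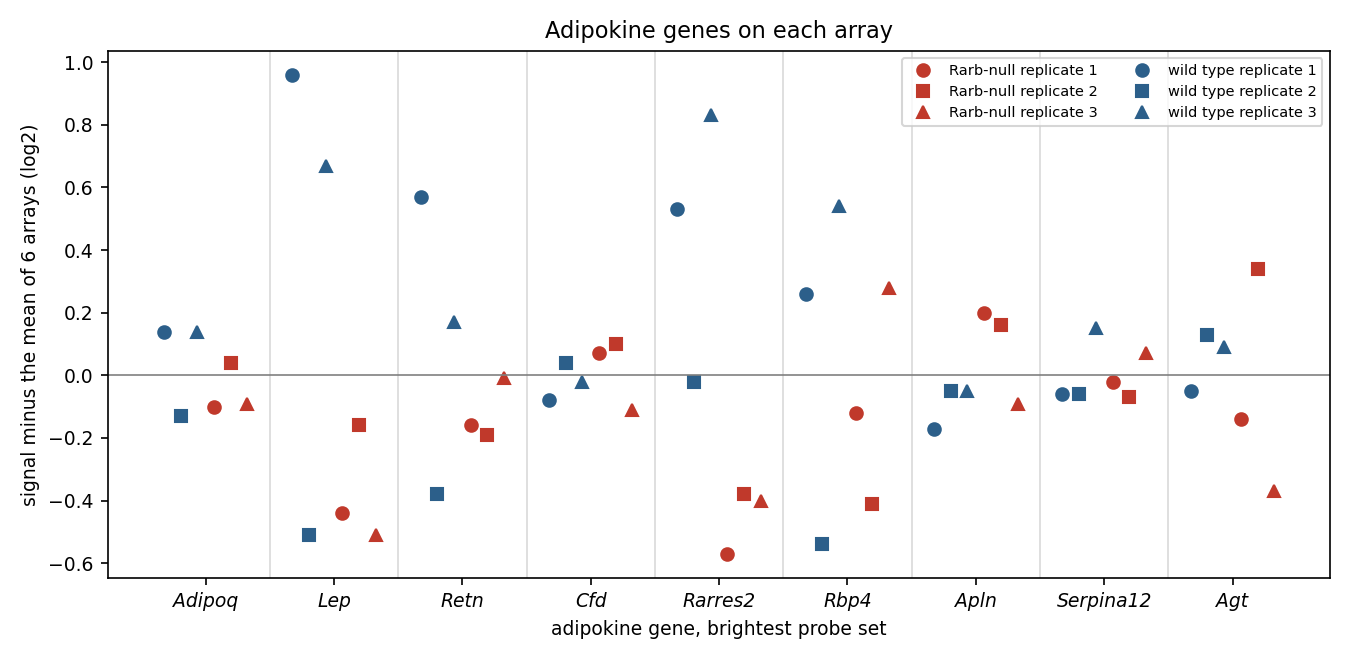
Log2 signal of the brightest probe set of each adipokine gene minus its mean over the 6 arrays (vertical axis), for each array; colours give the genotype and symbols the replicate. Lep, Retn and Rarres2 spread over 1.47, 0.953 and 1.40 log2 with wild-type replicates 1 and 3 on top. Rbp4 spreads over 1.07 log2 with wild-type replicate 3 and Rarb-null replicate 3 on top, whereas Adipoq and Cfd stay within 0.275 and 0.209 log2.

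**Figure D3:**
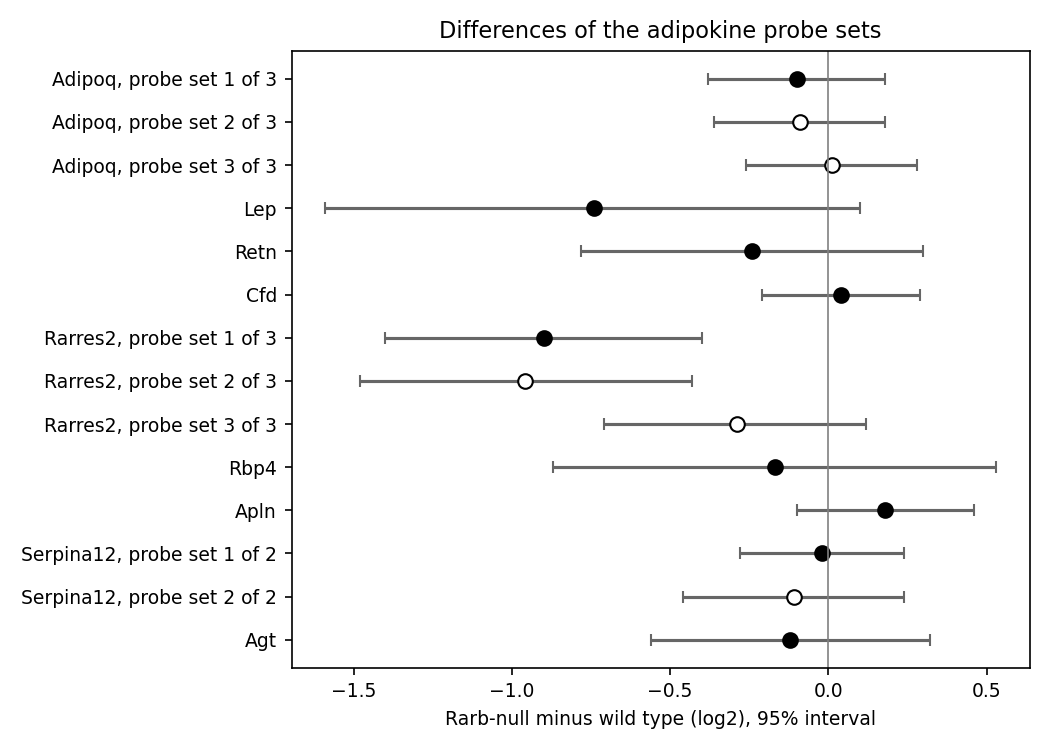
Difference of the group means in log2 (horizontal axis, Rarb-null minus wild type) for all 14 adipokine probe sets, with 95% intervals from limma; filled points are the brightest probe set of a gene. The intervals of the 2 brighter Rarres2 probe sets, -1.40 to -0.40 and -1.48 to -0.43, lie wholly below 0, and those of the other 12 include it.

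Adipokine signal was next set against the signal of adipocytes on the same array. The mean of 12 adipocyte markers was 12.14, 12.22 and 12.33 log2 on the Rarb-null arrays and 12.59, 11.83 and 12.51 log2 on the wild-type arrays, with 8 of the 12 lower in Rarb-null, a median difference of -0.07 log2 and 0 past the threshold. Wild-type replicate 2 was thus the array with the least adipocyte signal. Only differences between arrays of these relative values can be read, not their absolute size.

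Relative to this mean, Rarres2 lay at -0.69, -0.59 and -0.71 log2 on the Rarb-null arrays and at -0.04, 0.17 and 0.34 log2 on the wild-type arrays. The gap between the groups was wider than in the signal itself, and wild-type replicate 2 was no longer the nearest to the Rarb-null arrays. The difference was -0.82 log2 (means -0.66 ± 0.07 and 0.15 ± 0.19, SD, n = 3 each), and it ran from -0.92 to -0.73 log2 with each array left out in turn. Lep lay at 0.23, 0.42 and -0.04 log2 against 1.17, 0.47 and 0.97 log2, a difference of -0.67 log2. Its groups no longer overlapped, but Rarb-null replicate 2 and wild-type replicate 2 were only a small step apart. For Rarres2 and Lep the exact two-sided permutation test over the 6 arrays gave p = 0.1, the smallest this design allows, and 0.45 after Benjamini-Hochberg adjustment over the 9 genes. These were 2 of the 9 adipokines with relative values that did not overlap and were lower in Rarb-null. Of all named genes 1.68% were, a share computed after the values were seen. Subtracting the marker mean can add its spread to genes that do not follow adipocytes, so this share is no fair yardstick for adipokines. In the signal itself 5.86% of all probe sets had groups apart with Rarb-null lower. For Rarres2 the relative values restate a separation already seen in the signal.

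For the other 7 genes the relative values overlapped. Retn differed by -0.16 log2 (exact permutation p 0.2, 0.60 adjusted) and Adipoq by -0.02 log2 (exact permutation p 0.9). With the adipocyte marker mean as a covariate in limma, the Rarres2 difference was -0.82 log2 (unadjusted p 0.000615, adjusted p 0.840) and the Lep difference -0.61 log2 (unadjusted p 0.00939, adjusted p 0.840). No adipokine passed the adjusted threshold in that fit.

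**Figure D4:**
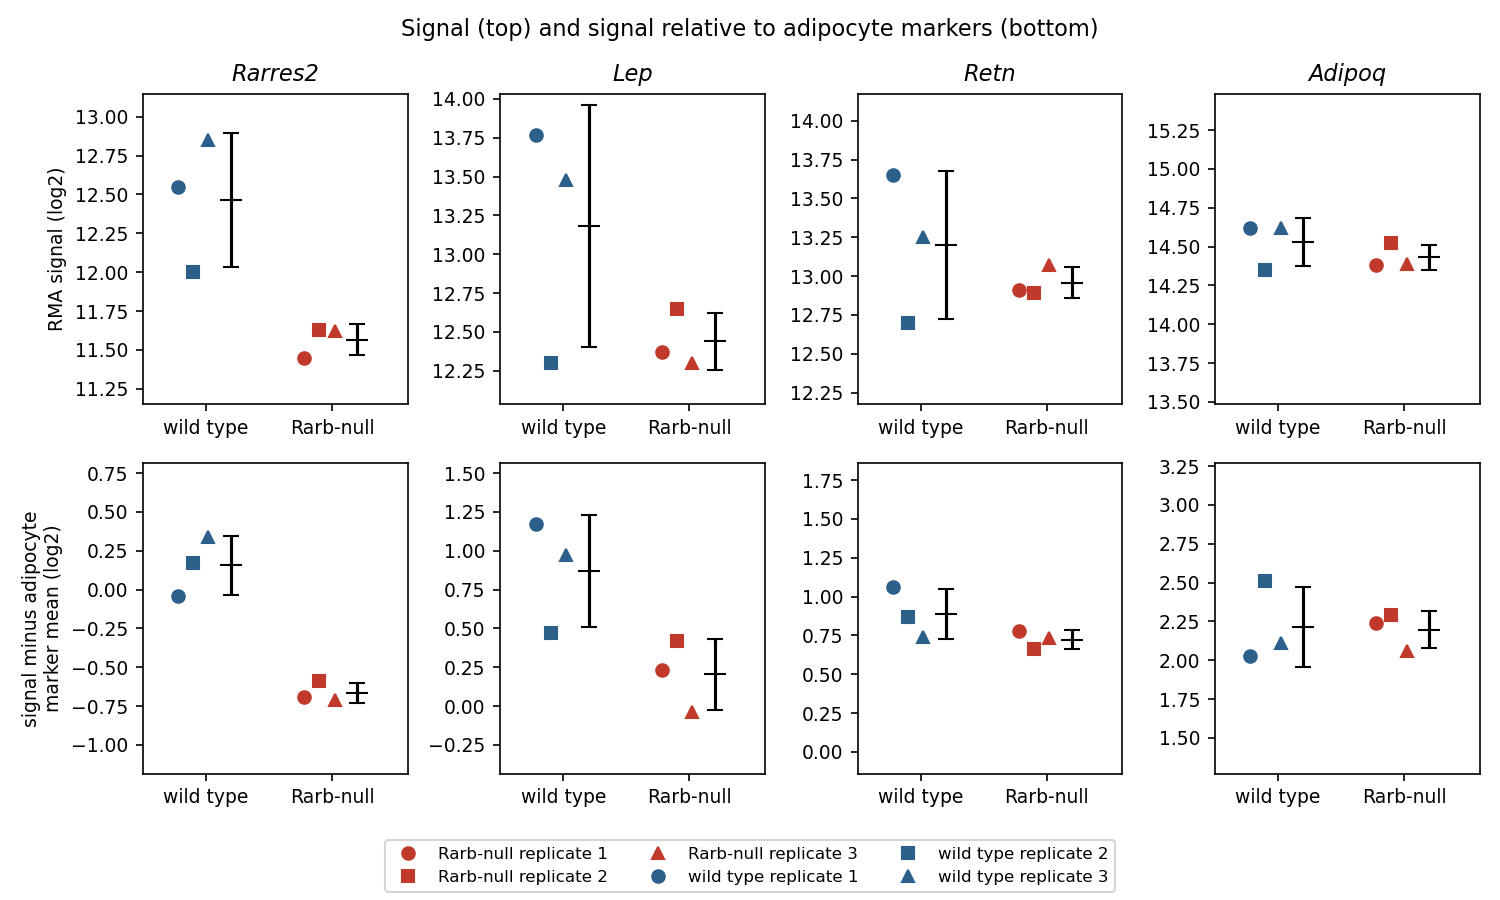
Log2 signal on each array (top row) and the same minus the mean log2 signal of the 12 adipocyte markers on that array (bottom row) for Rarres2, Lep, Retn and Adipoq, by genotype, with mean and SD of 3 arrays. The Rarb-null arrays lie below all wild-type arrays for Rarres2 in both rows and for Lep in the bottom row, where its nearest values are 0.42 and 0.47.

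The arrays also differed in the markers of other cells. The mean of 6 skeletal muscle markers was 10.73 log2 on wild-type replicate 2 and 9.53 log2 on Rarb-null replicate 3, against 6.80 to 7.60 log2 on the other 4 arrays. The mean of 8 brown and beige adipocyte markers was 10.41 log2 on Rarb-null replicate 3 and 7.46 to 8.78 log2 elsewhere. The 7 cell cycle markers measured averaged 9.15 to 9.23 log2 on Rarb-null replicates 1 and 2 and wild-type replicate 2, and 6.18 to 6.55 log2 on the other 3. Wild-type replicate 2, the wild-type array with the lowest Lep, Retn and Rarres2 signal, therefore had the highest muscle, and high cell cycle, signal. With the cell cycle mean as a covariate the Rarres2 difference was -0.78 log2 and the Lep difference -0.59 log2, and with the muscle mean they were -0.94 and -0.82 log2. These fits were chosen after the values were seen, and in both the adjusted p of either gene was at least 0.613. Mean signal of 8 fibroblast markers (11.90 to 12.50 log2), 6 macrophage markers (10.37 to 10.89 log2), 6 endothelial markers (9.15 to 9.65 log2) and 8 epithelial markers (10.78 to 11.85 log2) overlapped between genotypes. That of 6 mast cell markers did not, at 8.33 to 8.59 log2 on Rarb-null and 8.62 to 8.75 log2 on wild-type arrays. Of these 6 markers, 5 were lower and 1 higher by mean in Rarb-null. Only 2 of the 6 had groups that did not overlap, both lower, where 5.86% of all probe sets were so. The part of the mast cell signal in the adipokine values was not tested.

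Genes whose profile over the arrays was most like that of a member were ranked by the root mean square difference of their centred log2 values. For Rarres2, among 8899 genes with a mean of at least 8 log2, these were Rgcc (0.126 log2), a regulator of the cell cycle, Pink1 (0.130), a mitochondrial kinase, Dusp3 (0.134), a dual-specificity phosphatase, Camk2b (0.147), a calmodulin-dependent kinase, and Cyria (0.147). For comparison, the 2 brighter Rarres2 probe sets differed from each other by 0.140 log2 on the same measure. For Lep, among 13067 genes with a mean of at least 6 log2, they were Lpgat1 (0.119), an acyltransferase of lipid synthesis, Abcd2 (0.121), a peroxisomal transporter of fatty acids, Flacc1 (0.128), Npr3 (0.130), the clearance receptor of natriuretic peptides, and Serpina3n (0.134), a secreted serpin. Such small distances in 6 arrays are a description, picked from many genes. Within the set, the member nearest to Lep was Rarres2 (0.297 log2), and the member nearest to Cfd was Apln (0.081 log2), both with nearly level signal.

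The receptors of the adipokines showed no common direction. All 15 genes listed as receptors and co-receptors were measured, of which 7 were lower and 8 higher by mean in Rarb-null (median 0.06 log2), and 0 passed the threshold. None had an unadjusted p under 0.05 in limma, where 5.3% of named genes did. By p the leading gene was Cmklr1, the main signalling receptor of chemerin, at 9.15, 9.05 and 8.86 log2 against 9.65, 9.0 and 9.78 log2. Wild-type replicates 1 and 3 were again the high arrays and the groups overlapped, with a difference of -0.45 log2 and a second Cmklr1 probe set of opposite sign. Tlr4, a lipopolysaccharide receptor also proposed to bind resistin, differed by -0.22 log2 without overlap, but none of its other 3 probe sets had that sign. Cap1, a proposed resistin receptor in human cells, differed by 0.20 log2. The other chemerin receptors, named here after their values were seen, were Gpr1 at 0.06 log2 and Ccrl2, which binds chemerin without signalling, at 0.22 log2. Both were highest on Rarb-null replicate 3, and their groups overlapped. Gpr1 gave 8.91, 8.83 and 9.63 log2 on the Rarb-null arrays against 8.82, 9.15 and 9.22 log2 on the wild-type arrays. Ccrl2 gave 8.13, 8.27 and 9.66 log2 against 8.61, 8.19 and 8.61 log2. The adiponectin receptors Adipor1 and Adipor2, likewise named afterwards, differed by 0.08 and 0.19 log2, and the leptin receptor Lepr by -0.09 log2.

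Genes that process adipokines or act with them were also split. Of 24 listed, 22 were measured, 12 lower and 10 higher in Rarb-null with a median of -0.02 log2, and 0 passed. Of these 22, 1 had an unadjusted p under 0.05 in limma, where 5.3% of named genes did. Groups did not overlap for 1 gene with lower and 1 with higher signal, where 10.4% of all probe sets had such groups. Erp44, a chaperone of the secretory pathway that retains adiponectin until it is assembled, gave 11.84, 11.94 and 11.87 log2 on the Rarb-null arrays and 11.69, 11.68 and 11.40 log2 on the wild-type arrays. These groups did not overlap, and the difference of 0.29 log2 had an unadjusted p of 0.0428 and the same sign in both other probe sets. Its partner Ero1b, an oxidoreductase of the endoplasmic reticulum, differed by 0.35 log2 with groups that overlapped. Klk8, a kallikrein protease, gave 6.53, 6.27 and 6.46 log2 against 6.61, 6.58 and 6.96 log2, a difference of -0.29 log2. Adipoq itself, the cargo of Erp44, differed by -0.10 log2 as given above.

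Other secreted factors of fat tissue were mixed in direction. Of 22 listed, 21 were measured, 14 lower and 7 higher with a median of -0.02 log2, and 0 passed. A lower mean was found for 52.9% of all named genes. Of the 21, 2 had an unadjusted p under 0.05 in limma, where 5.3% of named genes did. For 3 the groups did not overlap, all with Rarb-null lower, where 5.86% of all probe sets were so. C1qtnf7, a relative of adiponectin, gave 6.68, 6.81 and 6.54 log2 on the Rarb-null arrays and 7.44, 7.11 and 7.69 log2 on the wild-type arrays. Its groups did not overlap, with a difference of -0.73 log2 (unadjusted p 0.00297, adjusted p 0.908) and the same sign in its other probe set. Sfrp5, a secreted Wnt inhibitor of adipocytes, gave 6.84, 6.84 and 7.20 log2 against 8.14, 7.23 and 8.56 log2. It too did not overlap, although only narrowly at Rarb-null replicate 3 and wild-type replicate 2, and differed by -1.01 log2 (unadjusted p 0.0152). Metrnl, a secreted factor of fat and muscle, differed by 0.46 log2 in the other direction, with groups that overlapped.

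Among transcription factors that act on adipokine genes, more were lower than higher. Of 18 measured, 12 were lower and 6 higher by mean (median -0.16 log2), 5 had an unadjusted p under 0.05, and 0 passed. Of all named genes 52.9% had a lower mean and 5.3% had an unadjusted p under 0.05, and the list itself was not tested. Groups did not overlap for 4 genes with lower and 2 with higher signal. Over all probe sets 10.4% had such groups in either direction and 5.86% with Rarb-null lower. Cebpd gave 9.30, 9.29 and 10.15 log2 against 10.24, 10.21 and 10.30 log2, a difference of -0.67 log2. Its groups did not overlap, but the second Cebpd probe set went the other way. Cebpa, the C/EBP factor of mature adipocytes, gave 11.85, 11.21 and 11.22 log2 against 12.17, 11.57 and 12.44 log2, a difference of -0.64 log2 with groups that overlapped. Foxo1, a factor held in check by insulin, differed by -0.32 log2 and the retinoid X receptor gene Rxrb by -0.27 log2, both without overlap. Only 2 of the 3 other Foxo1 probe sets had the same sign. The oestrogen receptor gene Esr1 was the 1 of the 5 genes with an unadjusted limma p under 0.05 that had a higher mean. It differed by 0.30 log2, also without overlap. Pparg, a direct activator of Adipoq, differed by -0.21 log2, with an unadjusted p of 0.399. Cebpa, Esr1 and Pparg were named here after their values were seen.

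**Figure D5:**
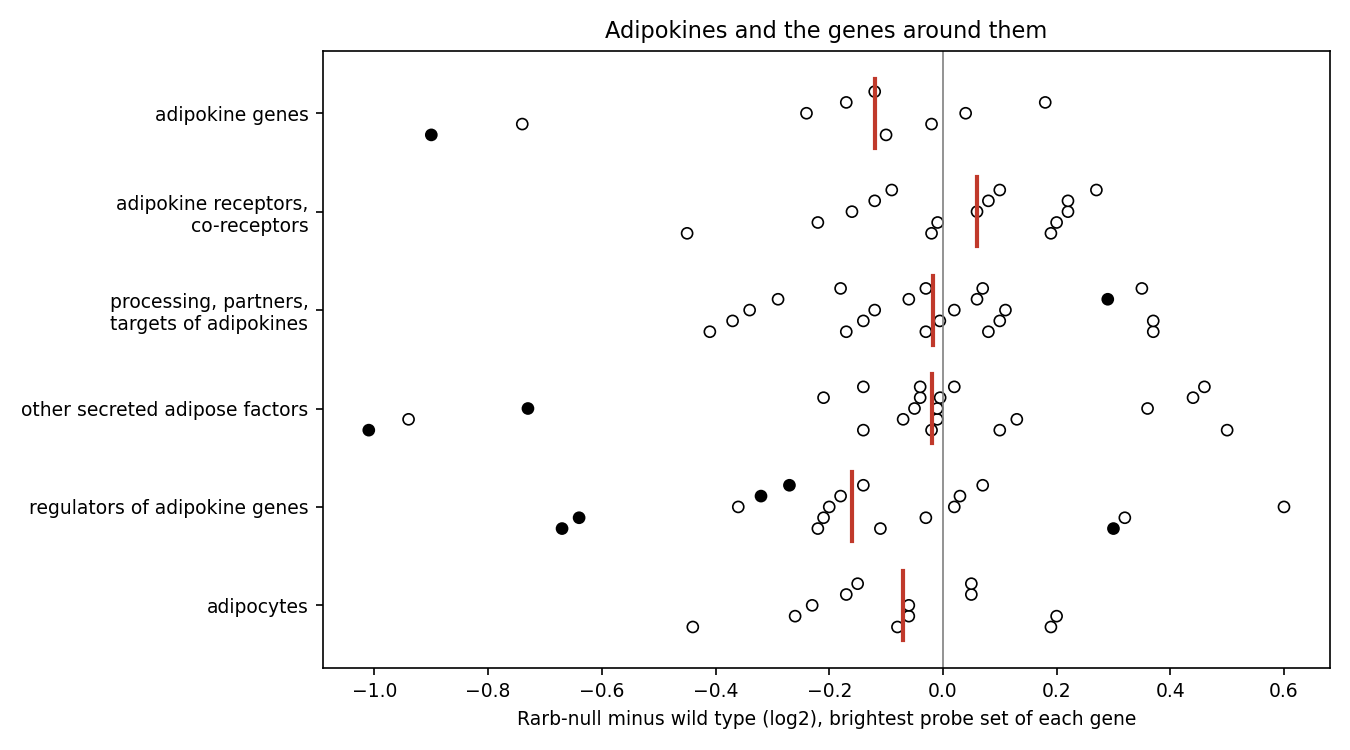
Difference of group means in log2 (horizontal axis, Rarb-null minus wild type) for each gene of the adipokine set, of 4 lists of related genes and of the adipocyte markers; red lines are list medians and filled points have an unadjusted p under 0.05. The medians lie between -0.16 and 0.06 log2, and Rarres2 at -0.90 log2 is the lowest of the 9 adipokines.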

How the data were processed

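RNA was measured on 6 arrays in 2 groups of 3. The deposited log2 values come from RMA, according to the submitters' processing notes. RMA corrects background, equalises the distributions of the arrays and summarises the probes of a set, so a shift shared by most genes is removed. A second table holds log2 fold changes of group means, per the file headers. It also holds the score (SAM d) that the authors computed, per the file headers, and the authors' p-value for each probe set. Its fold changes equalled the differences of group means within 7.4e-06.

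The 64 control probe sets were left out. Symbols came from the authors' table. Of 40149 probe sets with 1 symbol, 28011 symbols were current in RefSeq (GRCm38.p6), 8412 were updated by synonym and 3726 kept. limma 3.58.1 in R 4.3.3 (lmFit, eBayes) tested all 45037 probe sets with genotype as the one term and two-sided p-values adjusted by Benjamini-Hochberg, threshold 0.05. It was checked on simulated data. Intervals are 95%. The brightest probe set by mean stood for a gene. Figures used matplotlib 3.10.9. No read depth applies, and the number of arrays limits precision.

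Named were all members, the 3 genes of each related list with the smallest p, and the 5 genes most like Rarres2 and Lep. Of the 9 marker lists, processed in the same way, list means are given. Members, lists and rules were chosen with earlier results of these data known. Same-numbered arrays deviated from their group means with correlations of -0.20, 0.45 and 0.29, so the numbers were not taken as pairs.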

Additional observations from a re-analysis of the deposited data

How the results depend on the processing

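Across 151 combinations of an adipokine gene with an alternative (quantile or median scaling, dim probe sets left out, a trended robust prior, array weights, a replicate block, marker means as covariates, single arrays left out, the mean of a gene's probe sets), 143 kept their direction and all 151 stayed above an adjusted p of 0.05 in limma. The lowest adjusted p was 0.231. The 8 reversals were of small differences. With the cell cycle marker mean as a covariate, added after seeing the data, Cfd turned to -0.0054, Rbp4 to 0.05 and Serpina12 to 0.01 log2. With single arrays left out, Cfd ran from -0.0028 to 0.10, Rbp4 from -0.49 to 0.05, Serpina12 from -0.06 to 0.05 and Agt from -0.32 to 0.04 log2, and the cause was not tested. The count of probe sets past the threshold ran from 0 to 1, the 1 without Rarb-null replicate 2, which was no adipokine. The replicate block left Rarres2 at -0.90 log2 (adjusted p 0.642) and called 0 probe sets. Serpina12 has no value where dim probe sets were removed. The 3 arrays a group and unknown detection limit what can be said of dim genes.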
